A study of Mus musculus with 18 samples.

Results

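The granzymes Gzma, Gzmb, Gzmc, Gzmd, Gzme, Gzmf, Gzmg and Gzmk and the pore protein perforin (Prf1) were followed in 18 mouse melanoma allografts. These 9 genes are named by 12 of the 45037 probe sets on the array, of which 11 name 1 gene and 1 (1421227_at) names both Gzme and Gzmd. They were chosen by their measured values, since Gzmd and Gzmb are lower than in vehicle tumours while transcripts of lymphocytes are higher, which for the lymphocyte transcripts holds in NRAS-off and not in MEK inhibitor tumours. So the differences from vehicle of the members and of the lymphocyte markers are given as a description, without a test.

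Granzymes are serine proteases kept in the granules of cytotoxic lymphocytes, mainly T cells and natural killer (NK) cells. Perforin opens the membrane of a target cell, and granzymes that enter through it cleave proteins whose loss kills the cell. In the mouse, Gzmb lies in a cluster on chromosome 14 with the rodent-specific genes Gzmc to Gzmg and the proteases of mast cells and basophils, whereas Gzma and Gzmk lie together on another chromosome.

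The tumours came from 1 mouse melanoma line, iNRAS-475, whose NRAS oncogene is on while doxycycline is given. It was injected intradermally. The hosts were nude mice, which have no functional thymus and few mature T cells but keep NK cells, B cells and myeloid cells. Hosts drank 2 mg/ml doxycycline until tumours measured 200 to 500 mm3 at 6 weeks. Vehicle tumours (n = 6) stayed on doxycycline and received vehicle, for a time the labels do not give. MEK inhibitor tumours (n = 6) received 100 mg/kg AZD6244, selumetinib, which blocks the kinases MEK1 and MEK2 downstream of NRAS, for 4 days. NRAS-off tumours (n = 6) had doxycycline withdrawn for 4 days, so loss of NRAS and loss of the drug itself cannot be told apart. Each tumour was distinct, and a piece trimmed of skin was read on 1 array. Host ages are not given in the sources used here.

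Values below are intensities as deposited, and differences are on the scale of log2(intensity + 16) with their standard errors, n = 6 tumours per arm. This scale understates changes of dim probe sets. A probe set was tested when its mean over the 18 tumours lay above the 25th percentile (intensity 23.5), and it was called at a limma Benjamini-Hochberg adjusted p under 0.05. Intensities of different probe sets are not comparable with each other. In whole tumour pieces, fewer cells of a type and less RNA per cell cannot be told apart.

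Array medians lay between 72.3 and 78.5, and tumours of 1 arm correlated at 0.9871 to 0.997. Of the melanocytic markers 5 of 7 were above the filter, with Tyr and Tyrp1 below it. NRAS-off replicate 6 stood apart in lymphocyte transcripts, and NRAS-off replicate 2 in keratinocyte transcripts, with a summed keratinocyte marker intensity of 27460 against an arm median of 638.1. Results that rest on replicate 6 are given with and without it.

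Gzmd had the largest difference of the members. Probe set 1420343_at read 1159 to 1719 (median 1482) in vehicle tumours, 175.5 to 582.2 (median 509.5) under MEK inhibitor and 16.3 to 74.9 (median 38.4) after NRAS withdrawal. The 3 arms did not overlap, and in 2 NRAS-off tumours the probe set read below the filter intensity. The mean after NRAS withdrawal was 2.97% of the vehicle mean, and under MEK inhibitor 31.1% of it. The difference from vehicle was −4.74 ± 0.27 in NRAS-off tumours and −1.72 ± 0.27 in MEK inhibitor tumours, and the treated arms differed by −3.02 ± 0.27. The second probe set, 1420344_x_at, gave −4.76 ± 0.29, −1.74 ± 0.29 and −3.02 ± 0.29 for the same differences.

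Gzme, the neighbour of Gzmd, followed it with a smaller difference. Its probe set 1450171_x_at read 3665 to 4992 (median 4011) in vehicle tumours, 946.0 to 2526 (median 1442) under MEK inhibitor and 235.9 to 856.8 (median 515.2) in NRAS-off tumours. No tumour of 1 arm reached the range of another. The differences from vehicle were −3.08 ± 0.26 without NRAS and −1.35 ± 0.26 under MEK inhibitor. The NRAS-off and MEK inhibitor arms differed by −1.73 ± 0.26. The probe set shared by Gzme and Gzmd read 7838 ± 929.2 (SD) in vehicle, 3501 ± 1210 in MEK inhibitor and 1018 ± 443.0 in NRAS-off tumours. Gzmd and Gzme are near-identical copies and probe sets ending in _x_at can bind related transcripts, so the share of each gene in these signals is uncertain. For that reason the difference of Gzme between the treated arms is a description too, as are those of Gzmd and Gzmb.

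Gzmb, which cleaves proteins after aspartate and can activate caspases and Bid, read 191.8 to 995.7 (median 560.4) in vehicle tumours. It read 86.3 to 248.8 (median 160.6) under MEK inhibitor and 32.5 to 161.9 (median 50.1) in NRAS-off tumours. Vehicle and NRAS-off tumours did not overlap, but the lowest vehicle tumour lay within the MEK inhibitor range. The highest NRAS-off tumour was replicate 6, and the other 5 lay between 32.5 and 55.1. Differences from vehicle were −2.84 ± 0.36 and −1.68 ± 0.36, and NRAS-off tumours were lower than MEK inhibitor tumours by a log2 difference of −1.16 ± 0.36. Without NRAS-off replicate 6 the first of these was −3.10 ± 0.33.

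Gzmc and Gzmg were lower than vehicle in both treated arms. Gzmc read 423.3 to 934.0 (median 790.0) in vehicle, 173.6 to 332.2 (median 301.6) in MEK inhibitor and 116.5 to 259.4 (median 214.0) in NRAS-off tumours. Both treated arms lay wholly below vehicle and overlapped each other. The differences from vehicle were −1.33 ± 0.22 with the inhibitor and −1.78 ± 0.22 without NRAS, and the difference between treated arms did not pass (−0.45 ± 0.22, limma adjusted p = 0.109). It did pass without MEK inhibitor replicate 1 (−0.57, limma adjusted p = 0.0465).

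Gzmg read 23.7 to 86.4 (median 46.6) in vehicle tumours and 15.2 to 20.9 and 12.0 to 17.7 in the MEK inhibitor and NRAS-off tumours. Every treated tumour lay below the filter intensity and every vehicle tumour above it. So Gzmg passed the filter only through its vehicle values, and the size of the difference is limited by the floor of the array. The fitted differences were −1.01 ± 0.16 and −1.13 ± 0.16. With both treated arms at the floor, they are not compared with each other. Gzmf, the remaining gene of this group, read 12.9 to 20.01 over all 18 tumours and was not tested.

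Gzma, a tryptase that cleaves the SET complex, went the other way in NRAS-off tumours. It read 24.6 to 33.1 (median 27.7) in vehicle, 22.5 to 30.5 (median 24.1) in MEK inhibitor and 38.0 to 130.9 (median 78.9) in NRAS-off tumours. All NRAS-off tumours lay above all others. The difference from vehicle was 1.04 ± 0.20 after NRAS withdrawal and −0.10 ± 0.20 under MEK inhibitor. Gzma was higher in the NRAS-off than in the MEK inhibitor arm by 1.15 ± 0.20, which is a description too. It is itself a transcript of cytotoxic lymphocytes, and the choice of members used the higher lymphocyte transcripts of NRAS-off tumours. For the same reason, the p values of Gzmk and Prf1 between these arms are not independent of the choice. Without replicate 6 the difference from vehicle was 0.91 ± 0.19.

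Gzmk, the tryptase next to Gzma, varied widely between tumours of 1 arm. It read 56.7 to 190.6 (median 74.5) in vehicle, 60.5 to 91.6 (median 65.7) in MEK inhibitor and 73.3 to 954.2 (median 123.1) in NRAS-off tumours. The arms overlapped, and the second highest NRAS-off tumour read 145.5. The difference between treated arms was 1.04 ± 0.43 (limma adjusted p = 0.0579) and without replicate 6 it was 0.55 (limma adjusted p = 0.091). It passed in 2 of the fits that left out another tumour, those without NRAS-off replicate 1 (1.24, limma adjusted p = 0.0308) and replicate 3 (1.20, limma adjusted p = 0.0401). Against vehicle, NRAS-off tumours differed by 0.68 ± 0.43, and by 0.18 ± 0.25 without replicate 6.

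Perforin, the pore protein, differed little between arms. Probe set 1450335_at read 55.8 to 72.7 (median 62.3) in vehicle, 60.7 to 69.2 (median 64.1) in MEK inhibitor and 47.6 to 61.0 (median 53.9) in NRAS-off tumours. It was lower in the NRAS-off than in the MEK inhibitor arm by a log2 difference of −0.19 ± 0.06 (limma adjusted p = 0.0185), which did not pass without NRAS-off replicate 6 (−0.16, limma adjusted p = 0.052). The second probe set, 1451862_a_at, differed by 0.12 ± 0.11 (limma adjusted p = 0.428), and its highest tumour was NRAS-off replicate 6 at 77.2. Without that tumour its difference was 0.00 ± 0.08 (limma adjusted p = 0.992). Their intensity lay between 36.4 and 77.2 in every tumour.

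**Figure D1:**
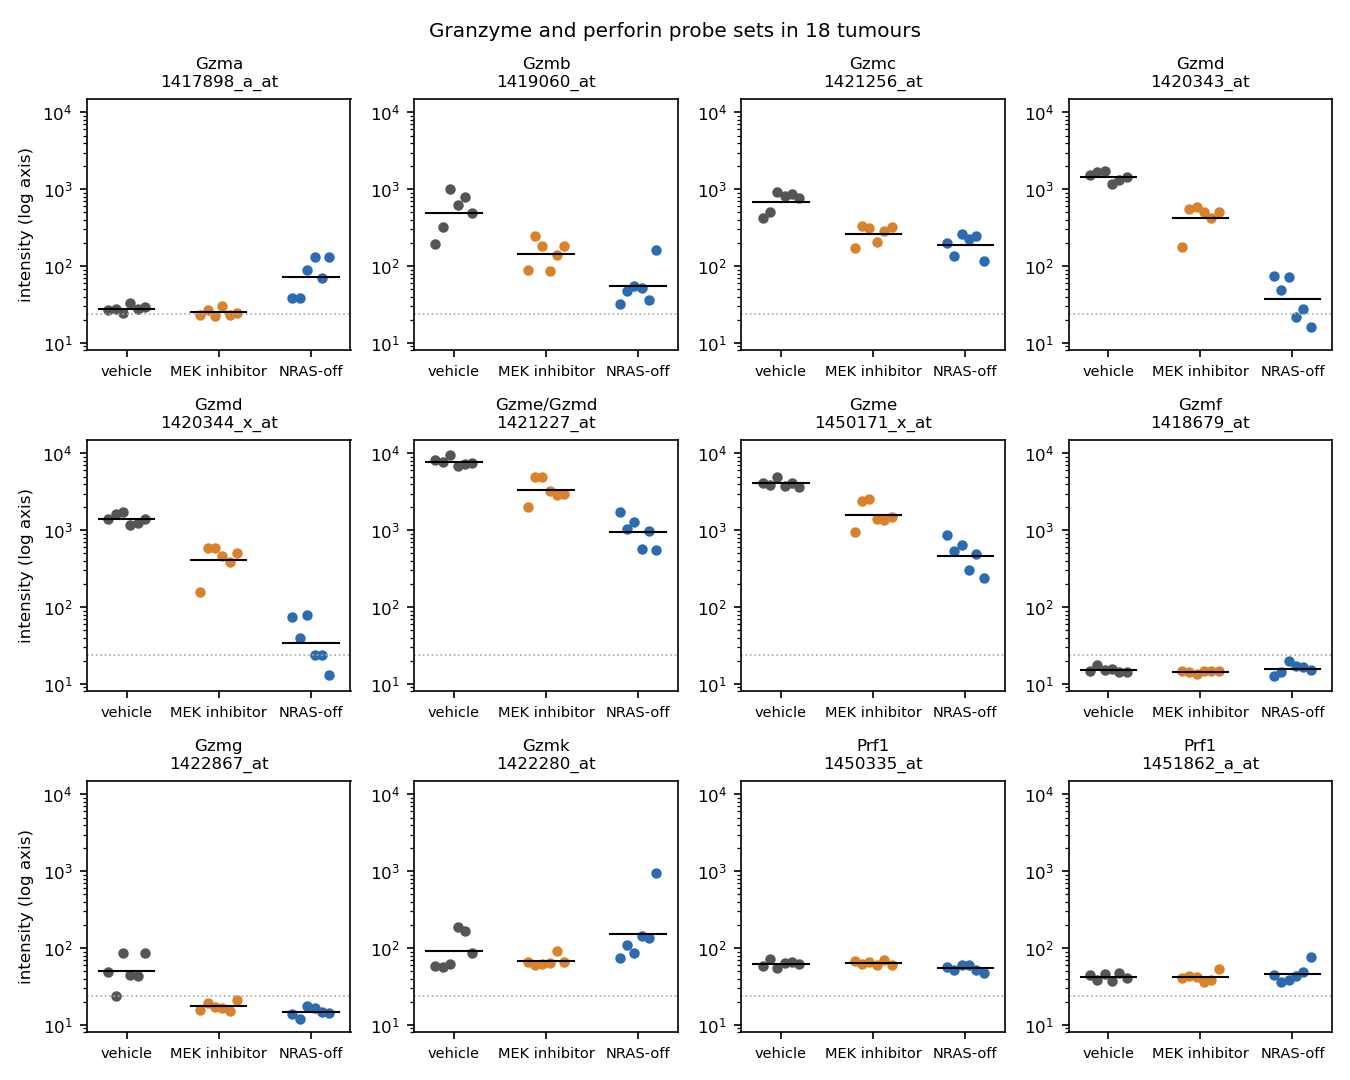
Intensity (log axis) of each of the 12 probe sets in 18 tumours, with 1 point per tumour and a bar at the geometric mean of the 6 tumours of an arm. The dotted line marks the filter intensity of 23.5. Gzmd falls in 3 separate bands from 1159 to 1719 down to 16.3 to 74.9, Gzma is highest in NRAS-off tumours, and 1 NRAS-off tumour reaches 954.2 for Gzmk.

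Of the 11 member probe sets above the filter, 8 were called lower and 1 higher in NRAS-off against vehicle, where 26.7% and 28% of all 33777 tested probe sets were called lower and higher. Against vehicle under MEK inhibitor 7 were called lower and 0 higher, beside 20.1% and 20.6% of all probe sets. Their arms did not overlap for 7 lower and 1 higher in the first contrast (17.3% of all probe sets in each direction) and for 6 lower and 0 higher in the second (11.3% and 10.2%). Between the treated arms 6 were called lower and 1 higher in NRAS-off tumours, beside 20% and 20.6% of all probe sets, and 4 lower and 1 higher did not overlap (11.4% and 12%). The choice of members used the contrasts against vehicle, and 5 of the 6 lower probe sets between the treated arms measure Gzmd, Gzme or Gzmb, so nothing is read from any of these counts. Without NRAS-off replicate 6, 7 were called lower and 1 higher against vehicle and 5 lower and 1 higher between the treated arms. The 6 lower between the treated arms are the 2 of Gzmd, the shared one, and 1 each of Gzme, Gzmb and Prf1, and the higher is Gzma. The median difference between treated arms was −0.45 over the members and −0.01 over all probe sets tested.

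**Figure D2:**
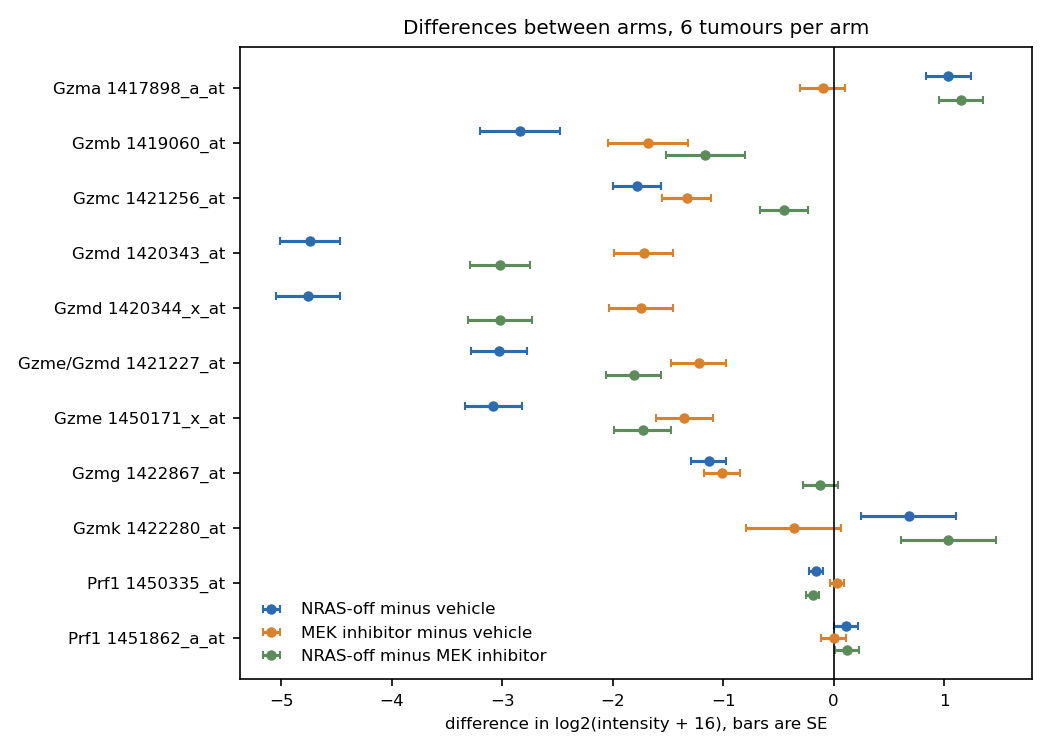
Difference in log2(intensity + 16) with its SE for 11 member probe sets in the 3 contrasts, 6 tumours per arm. The blue points of Gzmd near −4.74 are farthest from 0, the blue and orange points of Gzmc lie close together, and the blue point of Gzma lies at 1.04. Both treated arms of Gzmg lie at the floor of the array, so its points are not compared with each other.

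Gzmc, Gzmd, Gzme, Gzmf and Gzmg share a stretch of promoter that the other members lack. RefSeq promoters (build GRCm38.p6, C57BL/6J) were found for 9 of 9 genes. Over 250 bases upstream of the start, Gzmc, Gzmd, Gzme, Gzmf and Gzmg aligned with each other at 82.4% to 95.2% identity, highest for Gzmd and Gzme. A run of 20 bases was identical in these 5 and stood in 5 of 32851 promoters of this length (0.0152%). The longest run that Gzmb shared with any of the 5 was 9 bases. The 200 bases before the start are shown for 4 genes. Gzmd had the largest difference, Gzmc is the member least like it among the 5, Gzmf has a promoter of the same family while its only probe set was below the filter, and Gzmb lies in the cluster with an unlike promoter. All are on the minus strand and written 5′ to 3′. They lie at chr14:56132594-56132793 (Gzmd), chr14:56234658-56234857 (Gzmc), chr14:56211408-56211607 (Gzmf) and chr14:56262335-56262534 (Gzmb). Capitals mark the shared run in the first 3, and in Gzmb the letters TGAGTCA, a match to the AP-1 motif.
Gzmd: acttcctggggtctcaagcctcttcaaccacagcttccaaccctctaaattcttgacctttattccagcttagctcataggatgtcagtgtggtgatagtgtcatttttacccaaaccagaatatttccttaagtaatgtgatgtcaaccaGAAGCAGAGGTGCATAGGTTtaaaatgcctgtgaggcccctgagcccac
Gzmc: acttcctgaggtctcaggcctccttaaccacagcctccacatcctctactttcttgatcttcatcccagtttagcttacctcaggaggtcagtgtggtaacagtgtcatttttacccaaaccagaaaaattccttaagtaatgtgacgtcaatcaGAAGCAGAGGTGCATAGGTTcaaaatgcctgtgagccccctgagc
Gzmf: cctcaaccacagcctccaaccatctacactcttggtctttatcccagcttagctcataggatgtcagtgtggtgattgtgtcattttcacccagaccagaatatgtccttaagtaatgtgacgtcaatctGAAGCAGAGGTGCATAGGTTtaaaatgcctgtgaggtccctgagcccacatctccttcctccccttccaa
Gzmb: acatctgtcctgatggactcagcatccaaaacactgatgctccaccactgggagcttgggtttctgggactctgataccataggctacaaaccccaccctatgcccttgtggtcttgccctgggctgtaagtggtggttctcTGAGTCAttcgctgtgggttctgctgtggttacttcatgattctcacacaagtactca

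The shared run lies 49 to 30 bases before the start in Gzmd, 45 to 26 in Gzmc and 70 to 51 in Gzmf. Of the motifs searched on both strands of the 250 bases, the AP-1 letters TGANTCA were in Gzmb alone of the 9 members and in 6.75% of all promoters. The CRE letters TGACGTCA, bound by the CREB family, were in Gzmc, Gzmf and Gzmg and in 1.55% of all promoters. The RUNX letters ACCACA were in 8 of 9 members (14% of all promoters), TATAAA in 0 members (12.4%) and the T-box letters AGGTGTGA in 0 members (1.12%). No member holds both the AP-1 and the CRE letters. A match is a description of letters, not a bound site.

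Neighbours of the granzymes on chromosome 14 include the mast cell and basophil proteases. In RefSeq order from Cma1 to Gzmb the locus holds 15 genes, 10 of them above the filter here. Mcpt8, a protease of basophils, fell from 191.8 ± 57.81 (SD) in vehicle to 25.4 ± 5.42 in NRAS-off (−2.30 ± 0.13, limma adjusted p = 1.54e-11) and 31.9 ± 2.83 in MEK inhibitor tumours (−2.08 ± 0.13, limma adjusted p = 2.67e-10). Mcpt1, a protease of mucosal mast cells, fell by 2.69 ± 0.22 (limma adjusted p = 5.03e-09) in NRAS-off tumours, and its difference under MEK inhibitor was −1.97 ± 0.22 (limma adjusted p = 8.36e-07). Mcpt1 also differed between the treated arms (−0.72 ± 0.22, limma adjusted p = 0.0135), and Mcpt8 did not pass there (−0.22 ± 0.13, limma adjusted p = 0.186). Mcpt8 read 20.04 to 33.92 in NRAS-off and 26.39 to 34.25 in MEK inhibitor tumours, near the filter intensity of 23.5. The size of both Mcpt8 falls may therefore be limited by the floor of the array. The missing call does not show that Mcpt8 fell equally in the treated arms.

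The connective tissue mast cell proteases Mcpt4 and Cma1 were not lower in NRAS-off tumours, but fell under MEK inhibitor. Mcpt4 read 203.7 ± 89.12 in vehicle and 223.6 ± 57.98 in NRAS-off tumours (0.17 ± 0.23, limma adjusted p = 0.561), and it fell under MEK inhibitor by 1.37 ± 0.23 (limma adjusted p = 8.87e-05). The chymase Cma1 rose by 0.75 ± 0.28 in NRAS-off tumours (limma adjusted p = 0.0294) and fell by 1.03 ± 0.28 under MEK inhibitor (limma adjusted p = 0.00583). Mcpt2 was lower in both arms, at −1.32 ± 0.53 (limma adjusted p = 0.0425) and −1.45 ± 0.53 (limma adjusted p = 0.0356). Both Mcpt2 calls were lost in several fits that left out 1 tumour, with adjusted p up to 0.115 without NRAS-off replicate 1. Gzmn and Ctsg were below the filter, and Cma2 and Mcpt9 were not analysed here. Of 10 granule proteases above the filter other than the members, 2 rose and 3 fell in NRAS-off tumours (28% and 26.7% of all probe sets). Under MEK inhibitor 0 rose and 8 fell (20.6% and 20.1%), and between the treated arms 5 were higher and 1 lower (20.6% and 20%). Cpa3 rose by 0.88 ± 0.28 without NRAS (limma adjusted p = 0.0123). It fell by 0.99 ± 0.28 with the inhibitor (limma adjusted p = 0.00775). The summed intensity of 8 mast cell markers was 1785 to 3138 in vehicle, 506.0 to 1757 in MEK inhibitor and 2393 to 3724 in NRAS-off tumours. These markers include Mcpt4, Cma1 and Cpa3, so the sum is not a separate measure. The part of mast cell numbers in the differences of the proteases was not tested.

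**Figure D3:**
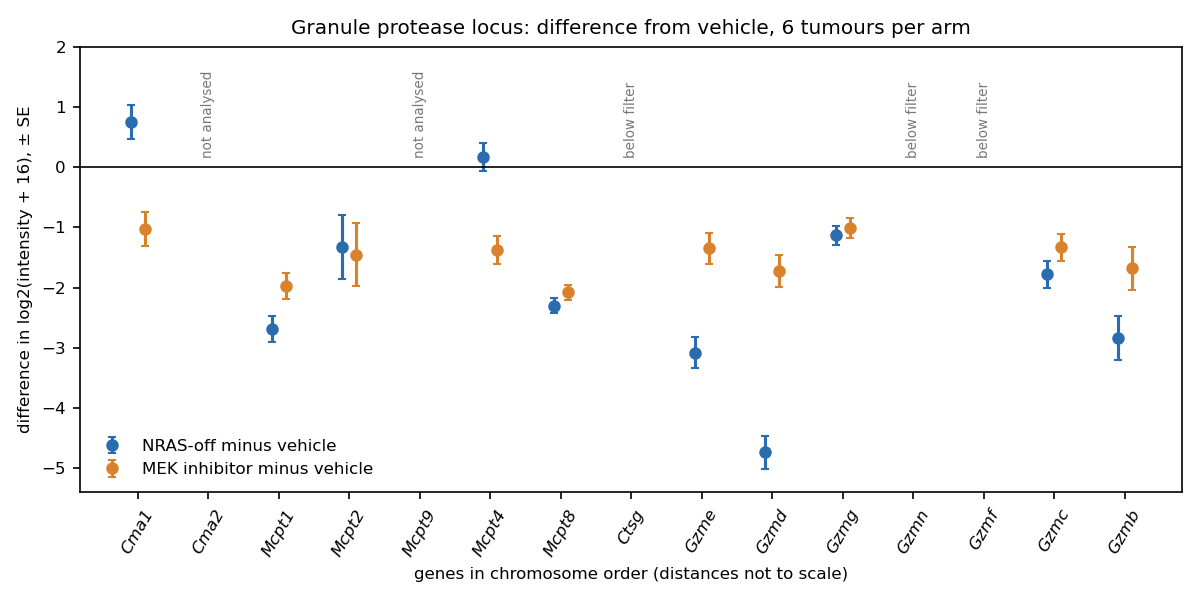
Difference from vehicle in log2(intensity + 16) with its SE, for the genes of the granule protease locus in RefSeq chromosome order, not to scale. Blue is NRAS-off and orange is MEK inhibitor. Gzmd is lowest at −4.74, Mcpt1 and Mcpt8 lie below −1.9 in both arms, and Cma1 and Mcpt4 lie above 0 in NRAS-off tumours only.

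Within an arm, members did not all vary together between tumours. After arm means were removed, 36 pairs of member genes were compared over 18 tumours with a two-sided permutation test of 100000 shuffles within arms. Gzmd and Gzme varied together (Pearson r = 0.86, permutation p = 1e-05, the smallest that 100000 shuffles can give, adjusted 0.00036; Spearman rho = 0.79, adjusted permutation p = 0.0277). The r was 0.55 in vehicle, 0.81 in MEK inhibitor and 0.93 in NRAS-off tumours, and 0.78 without the 2 tumours farthest from the median of Gzmd. The Gzme probe set can bind Gzmd transcripts, and its part in this correlation was not tested.

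Gzmk varied against Gzmd (r = −0.59, adjusted permutation p = 0.009; rho = −0.62, adjusted permutation p = 0.031), with r of −0.94, −0.17 and −0.77 in the vehicle, MEK inhibitor and NRAS-off arms and −0.73 without the 2 farthest tumours. Gzmk against Gzme gave r = −0.63 (adjusted permutation p = 0.0196) and rho = −0.69 (adjusted permutation p = 0.00576), but r was −0.30 without NRAS-off replicates 1 and 6, so this relation rests on those tumours. These were the 3 pairs of 36 that passed by r.

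Gzmb was not related to Gzmd past the threshold (r = −0.08, adjusted permutation p = 0.919; rho = −0.03, adjusted permutation p = 0.997). Its r with Gzmc was 0.98 in vehicle and 0.93 in MEK inhibitor tumours but −0.66 in NRAS-off tumours. Over all 18 tumours that pair did not pass (r = 0.40, adjusted permutation p = 0.434; rho = 0.51, adjusted permutation p = 0.317). In the NRAS-off arm replicate 6 had the highest Gzmb of the arm and the lowest Gzmc. Without it and vehicle replicate 1 the pooled r was 0.75.

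**Figure D4:**
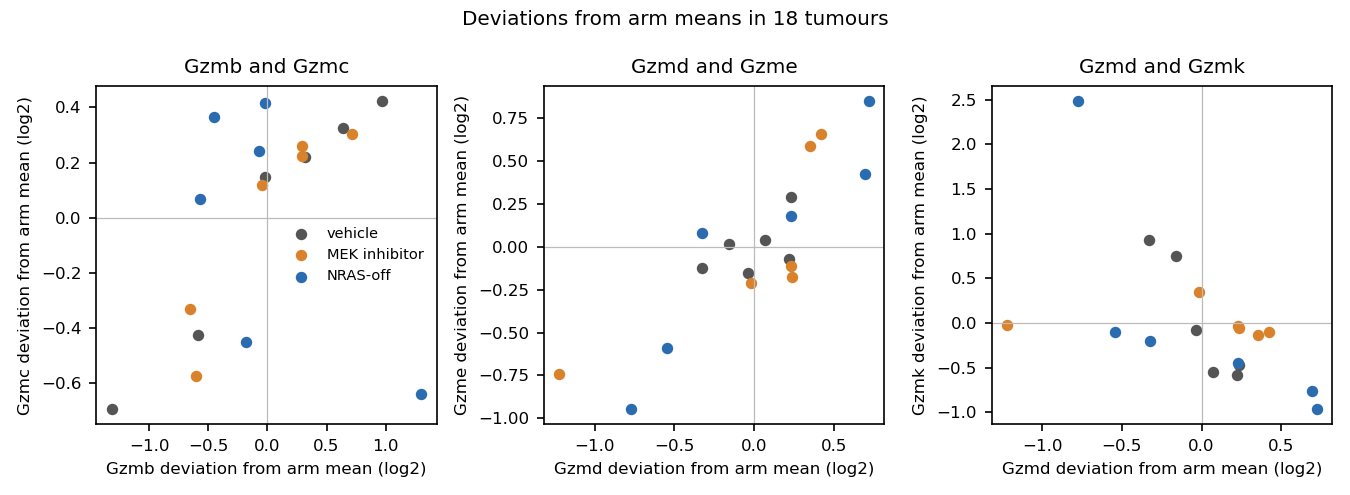
Deviation of each of 18 tumours from its arm mean, in log2(intensity + 16), for 3 pairs of genes; colours mark the arms. Gzmd and Gzme rise along a line (r = 0.86), Gzmk runs against Gzmd (r = −0.59), and 1 NRAS-off tumour at the lower right departs from the line of Gzmb and Gzmc.

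Among 14997 other genes, those whose within-arm deviations over 18 tumours were most like Gzmd were B9d1 (Pearson r = 0.87), Mrps14 (0.86), Pdhb (0.85), Ppp1r14b (0.83) and Nudt1 (0.82). For Gzmb they were Sfrp4 (0.80), Fgf5 (0.80), Ccnh (0.79), Mmp13 (0.79) and Lrfn2 (0.78). For Prf1, read from 1450335_at, they were Nipsnap2 (0.81), Prrt3 (0.80), Col11a2 (0.76), Thsd1 (0.75) and Lrriq3 (0.74). The other Prf1 probe set, 1451862_a_at, was not compared in this way or in the pairs of members. NRAS-off replicate 6 was the lowest tumour in the first probe set (47.6) and the highest in the second (77.2). No lymphocyte marker of the lists used here is among these 15 genes. So few of the 14997 genes are such markers that nothing is read from this. The points share their arrays, and the values are descriptions.

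Lymphocyte transcripts were higher in NRAS-off tumours, as the choice of members implies. Of the T cell markers 9 of 9 were above the filter, and their summed intensity was 378.7 to 488.7 in vehicle, 377.7 to 447.6 in MEK inhibitor and 461.5 to 1988 in NRAS-off tumours. Cd3g, a chain of the T cell receptor complex, differed from vehicle by 1.92 ± 0.41, Cd3d by 1.12 ± 0.30 and Cd2 by 0.92 ± 0.25 in NRAS-off tumours. The other T cell markers differed less, from 0.16 ± 0.09 for Cd8a to 0.72 ± 0.13 for Cd5. The median over the 9 was 0.42. Of the NK markers 6 of 9 were above the filter, while the defining receptors Ncr1 and Klrk1 and the factor Tbx21 were below it. The NK sum, which includes the markers below the filter, was 415.6 to 542.6 in vehicle, 320.6 to 377.2 in MEK inhibitor and 440.2 to 1875 in NRAS-off tumours. Under MEK inhibitor Eomes differed from vehicle by −0.95 ± 0.23 and Cd244a by −0.66 ± 0.08. Klrd1 (−0.18 ± 0.27), Nkg7 (−0.11 ± 0.42), Il2rb (0.02 ± 0.11) and Itga2 (0.07 ± 0.05) differed less, and the median over the 6 was −0.14. In NRAS-off against vehicle, Klrd1 differed by 1.34 ± 0.27 and Nkg7 by 1.31 ± 0.42, whereas Cd244a differed by −0.36 ± 0.08, Eomes by −0.48 ± 0.23 and Itga2 by −0.05 ± 0.05.

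The highest sums were those of NRAS-off replicate 6. Without it, the highest NRAS-off tumour had 1063 for T cell and 743.9 for NK markers. The differences from vehicle without it were 1.52 ± 0.31 for Cd3g, 0.81 ± 0.22 for Cd3d and 0.62 ± 0.14 for Cd2. They were 1.01 ± 0.15 for Klrd1, 0.86 ± 0.29 for Nkg7 and −0.77 ± 0.10 for Eomes. In replicate 6 Gzmk (954.2) and Gzmb (161.9) were the highest of the arm and Gzmd (16.3) the lowest. Gzma read 130.9 there and nearly the same, 130.7, in NRAS-off replicate 4. Markers of B cells summed to 108.2 to 144.7, 96.6 to 123.8 and 140.3 to 427.8 in the vehicle, MEK inhibitor and NRAS-off arms. Fibroblast markers summed to 45720 to 56700, 77820 to 84070 and 127400 to 154700, and macrophage markers to 13380 to 20980, 7020 to 14840 and 32320 to 44040. Skeletal muscle markers summed to 1806 to 10440, 12040 to 27010 and 21730 to 29340. The part of these cell types in the differences of the granzymes was not tested.

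**Figure D5:**
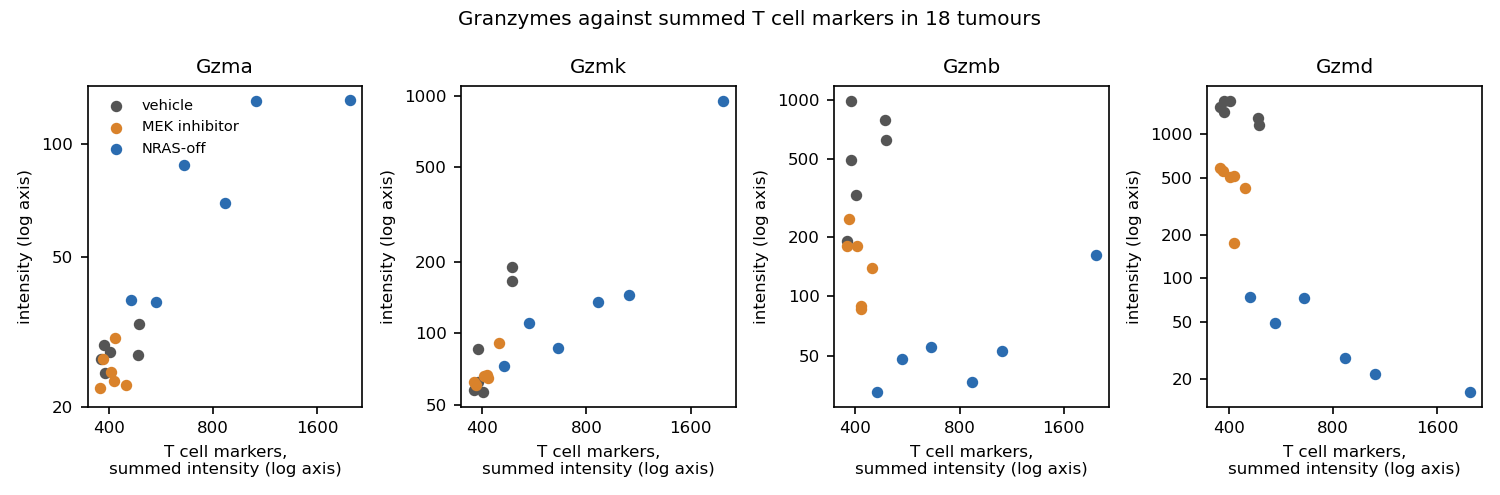
Intensity (log axis) of Gzma, Gzmk, Gzmb and Gzmd against the summed intensity of 9 T cell markers (log axis) in 18 tumours, coloured by arm. NRAS-off tumours spread from 461.5 to 1988 on the horizontal axis, and within that arm Gzma and Gzmk are mostly higher where the sum is higher. Vehicle replicates 4 and 5, with sums of 488.7 and 486.4, read 190.6 and 165.7 for Gzmk. The tumour with the highest sum has the highest Gzmb of its arm and the lowest Gzmd. The members were chosen by such differences between arms, so nothing is read from the relation across arms.

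Other genes of granule function were tested in the same fit, in which 54.7% of probe sets were called in NRAS-off against vehicle, 40.7% in MEK inhibitor against vehicle and 40.5% between the treated arms. Against vehicle 28% were called higher and 26.7% lower in NRAS-off tumours, and 20.6% higher and 20.1% lower under MEK inhibitor. Of 6 genes for granzyme activation and packaging, 3 rose and 1 fell in NRAS-off tumours, while 1 rose and 4 fell under MEK inhibitor. Ctsc, the protease that removes the propeptide of granzymes, rose by 0.77 ± 0.21 without NRAS (limma adjusted p = 0.00379) and fell by 0.96 ± 0.21 with the inhibitor (limma adjusted p = 0.000937). Ctsh, a second convertase, rose by 0.95 ± 0.12 (limma adjusted p = 1.5e-06) and fell by 0.42 ± 0.12 (limma adjusted p = 0.00824). Srgn, the granule proteoglycan serglycin, rose by 0.62 ± 0.22 (limma adjusted p = 0.0223) and fell by 1.81 ± 0.22 (limma adjusted p = 2.18e-06). The Srgn rise was lost without vehicle replicate 3 (0.50, limma adjusted p = 0.0623) and without NRAS-off replicate 6 (0.56, limma adjusted p = 0.05).

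The sorting receptor Igf2r fell by 0.33 ± 0.10 in NRAS-off tumours (limma adjusted p = 0.0073). The other sorting receptor, M6pr, did not pass there (0.13 ± 0.06, limma adjusted p = 0.0806) and fell under MEK inhibitor (−0.22 ± 0.06, limma adjusted p = 0.00796). Calr, a granule chaperone of perforin, did not pass in NRAS-off tumours (0.14 ± 0.06, limma adjusted p = 0.0582) and rose under MEK inhibitor (0.20 ± 0.06, limma adjusted p = 0.0146). Ctsc, Ctsh and Srgn are also made by macrophages, whose summed markers were also higher in NRAS-off and mostly lower in MEK inhibitor tumours; their part was not tested.

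Of 10 genes of granule exocytosis, 7 rose and 1 fell in NRAS-off tumours, and 1 rose and 1 fell under MEK inhibitor, Rab27a (0.32 ± 0.12, limma adjusted p = 0.0397) and Vamp8 (−0.15 ± 0.06, limma adjusted p = 0.0493). The call of Rab27a was lost in 10 settings, 7 of them leaving out 1 tumour, with the highest adjusted p with a pseudocount of 64 (0.17, limma adjusted p = 0.123). Rab27a, the GTPase that docks lytic granules and melanosomes, rose in NRAS-off tumours by 1.75 ± 0.12 (limma adjusted p = 3.55e-10). The lysosome membrane protein Lamp1 rose by 0.41 ± 0.05 (limma adjusted p = 8.23e-07) and the granule regulator Lyst by 0.40 ± 0.07 (limma adjusted p = 4.08e-05). Stx11, a syntaxin of the fusion step, fell by 0.57 ± 0.09 (limma adjusted p = 2.98e-05).

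Of 6 granzyme inhibitors, 4 rose and 1 fell in NRAS-off tumours and 0 passed under MEK inhibitor by limma, where 2 had an unadjusted p under 0.05. Serpinb9, which blocks granzyme B, rose by 1.23 ± 0.21 (limma adjusted p = 5.47e-05), and under MEK inhibitor its difference was 0.25 ± 0.21 (limma adjusted p = 0.387). Serpinb6b rose by 0.76 ± 0.26 (limma adjusted p = 0.0173), Serpinb1a by 0.49 ± 0.17 (limma adjusted p = 0.0183) and Serpinb6a by 0.32 ± 0.10 (limma adjusted p = 0.00886). Serpinb9b, a paralog of Serpinb9, fell by 0.85 ± 0.29 (limma adjusted p = 0.0169). Serpina3n, an extracellular inhibitor, did not pass (0.33 ± 0.28, limma adjusted p = 0.336). Under MEK inhibitor, Serpinb6a passed without vehicle replicate 4 (−0.26, limma adjusted p = 0.0331) and Serpinb9b without MEK inhibitor replicate 6 (−0.84, limma adjusted p = 0.0119).

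Of 11 granzyme targets and death effectors, 5 rose and 4 fell in NRAS-off tumours, and 3 rose and 4 fell under MEK inhibitor. Bid, cleaved by granzyme B, rose by 0.83 ± 0.11 without NRAS (limma adjusted p = 2.66e-06). Apex1 fell by 0.78 ± 0.08 (limma adjusted p = 4.89e-08), Nme1 by 0.75 ± 0.07 (limma adjusted p = 2.36e-08) and Set by 0.54 ± 0.07 (limma adjusted p = 7.95e-07), and these 3 belong to the SET complex cleaved by granzyme A. Hmgb2, of the same complex, fell by 0.52 ± 0.11 in NRAS-off tumours (limma adjusted p = 0.000589) and rose by 0.61 ± 0.11 under MEK inhibitor (limma adjusted p = 0.000214). Apex1 and Set also fell under MEK inhibitor. Nme1 passed there too (−0.19 ± 0.07, limma adjusted p = 0.0308), a call lost in 9 settings, 7 of them leaving out 1 tumour. Of 5 death ligands and receptors, 2 rose and 1 fell in NRAS-off tumours. Fas rose by 0.65 ± 0.07 (limma adjusted p = 1.63e-07) and Tnfsf10, the ligand TRAIL, by 0.65 ± 0.10 (limma adjusted p = 1.85e-05). The TRAIL receptor Tnfrsf10b fell by 0.17 ± 0.07 (limma adjusted p = 0.0487), a call lost in most fits that left out 1 tumour, with the highest adjusted p without NRAS-off replicate 4 (−0.13, limma adjusted p = 0.124). Tnf and Lta did not pass, and Fasl was below the filter.

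Of 8 cytokines and receptors known to induce granzymes, leaving out the NK marker Il2rb, 5 rose and 0 fell in NRAS-off tumours, and 1, Il18, rose under MEK inhibitor (0.24 ± 0.06, limma adjusted p = 0.00467). Il15, which supports NK cells and memory T cells, rose in NRAS-off tumours by 1.10 ± 0.16 (limma adjusted p = 6.67e-06) and its receptor chain Il15ra by 1.01 ± 0.13 (limma adjusted p = 1.09e-06). Il18 rose by 1.12 ± 0.06 (limma adjusted p = 2.74e-11) and its receptor Il18r1 by 1.31 ± 0.22 (limma adjusted p = 5.36e-05). The lymphocyte cytokines Il2 and Ifng were below the filter.

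Of 7 transcription factors of cytotoxic lymphocytes, leaving out the NK marker Eomes, 4 rose and 2 fell in NRAS-off tumours, and without replicate 6 of that arm 2 rose and 2 fell. Under MEK inhibitor 3 rose and 3 fell. Prdm1, which encodes Blimp-1, fell by 0.66 ± 0.16 (limma adjusted p = 0.00165) and under MEK inhibitor by 1.38 ± 0.16 (limma adjusted p = 1.15e-06). Stat5a rose by 0.51 ± 0.09 (limma adjusted p = 7.73e-05) and Stat5b by 0.47 ± 0.05 (limma adjusted p = 3.81e-07). Runx3 rose by 0.42 ± 0.15 (limma adjusted p = 0.0252) but not without replicate 6 (0.30, limma adjusted p = 0.0711). Eomes, a T-box factor of NK and CD8 T cells, is described without a test. It read 138.2 to 174.7 in vehicle and 58.4 to 80.8 in MEK inhibitor tumours, a difference of −0.95 ± 0.23. In NRAS-off tumours replicate 6 read 334.8 and the other 5 read 68.6 to 111.5.

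Between the treated arms, these 7 lists were tested in the same way, and the other granule proteases are given with the locus. Of all probe sets tested, 20.6% were called higher and 20% lower in this contrast. In NRAS-off against MEK inhibitor tumours 4 of 6 activation and packaging genes were higher and 1 lower, 7 of 10 exocytosis genes higher and 1 lower, and 4 of 6 inhibitors higher. Of the targets 3 of 11 were higher and 4 lower, of the cytokines and receptors 6 of 8 higher, of the transcription factors 5 of 7 higher and 1 lower, and of the death ligands and receptors 2 of 5 higher. The largest of these differences among packaging genes was that of Srgn (2.43 ± 0.22, limma adjusted p = 3.92e-08). The median differences of the lists in this contrast were 0.86, 0.32, 0.61, −0.01, 0.73, 0.55 and 0.07 in the order given, beside −0.01 over all probe sets. Against vehicle in the NRAS-off arm they were 0.38, 0.27, 0.41, 0.17, 0.78, 0.41 and 0.12, beside −0.01. Srgn, Ctsc and Rab27a were thus higher in NRAS-off than in MEK inhibitor tumours.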

How the data were processed

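Probe set intensity values were used as the authors deposited them. Per the submitters' processing notes, MAS5 and RMA were used, with no version and no statement of which gave the deposited values. They were treated as linear, being positive with like array medians; if they are not, folds are on another scale. No batch or date is given in the labels. Probe sets were named by the platform annotation (34945 with 1 symbol, 932 with several, 9160 with none). Values were transformed to log2(intensity + 16), and 33777 of 45037 probe sets with a mean above the 25th percentile were fitted across the 3 arms with limma 3.58.1 in R 4.3.3 (15 residual degrees of freedom, prior 4.12), with Benjamini-Hochberg adjustment within each contrast over all of them. The number of arrays limits the precision. The fit was tested on simulated data. The members, gene lists and marker lists were chosen with earlier results of these data known. Named genes are all members, up to 4 genes of each list with the largest passing difference in NRAS-off against vehicle and lists of up to 6 in full, the 5 genes most like Gzmd, Gzmb and Prf1, and neighbours at the locus. A gene with several probe sets is represented by the brightest. Promoters were aligned with Biopython 1.88. Alternatives covered the filter, pseudocounts of 1 and 64, normalization, prior, array weights, 1 probe set per gene, only the 2 arms compared, a replicate block and leaving out each tumour.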

Additional observations from a re-analysis of the deposited data

Results flagged for a closer look

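In 5 of 36 groups of member values, 1 tumour lay apart from the other 5 by more than Dixon's 95% limit, which chance exceeds in about 1 of 20 groups. Gzmb read 161.9 in NRAS-off replicate 6, against 32.5 to 55.1 in the rest of the arm. Gzmk read 954.2 in the same tumour, against 73.3 to 145.5. Gzmd read 175.5 (1420343_at) and 158.6 (1420344_x_at) in MEK inhibitor replicate 1, against 424.9 to 582.2 and 383.9 to 592.0, and both probe sets name the same gene. Gzmk read 91.58 in MEK inhibitor replicate 5, against 60.5 to 66.9.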

How the results depend on the processing

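No called difference of a member or a named listed gene changed its sign under the 11 alternatives and the 18 fits that left out 1 tumour. With 1 probe set per gene, 8899, 6787 and 7052 genes were called in NRAS-off against vehicle, MEK inhibitor against vehicle and NRAS-off against MEK inhibitor, against 18480, 13733 and 13691 probe sets, since fewer features are tested. Leaving out 1 tumour gave 17509 to 18761, 12744 to 13734 and 12588 to 13786 called, with 8 to 9, 6 to 7 and 6 to 8 member probe sets. Without vehicle replicate 3 or 6, Gzmg fell below the filter and 10 member probe sets were tested. The labels do not say that a replicate number marks a shared animal or day. The main fit therefore assumed no pairing. Same-numbered tumours of different arms correlated at −0.121 to 0.339 (median 0.0526, against −0.0161 for other pairs), and 6 of 18 pairs exceeded 0.1. Of the 18 tumours, 8 correlated best with their own number, though most partners in other arms had another number. So some shared variation by number is possible, and the replicate block allows for it. With the replicate block 18257, 13650 and 13518 were called, with 8, 7 and 8 member probe sets, and Serpinb9b passed under MEK inhibitor (−0.61, limma adjusted p = 0.0318). The call of Prf1 (1450335_at) against vehicle in the NRAS-off arm was lost with the replicate block, with only the 2 arms compared and in 5 fits that left out 1 tumour; Gzmk between the treated arms passed with array weights (limma adjusted p = 0.0461), a filter at the 50th percentile (limma adjusted p = 0.0489) and the replicate block (limma adjusted p = 0.0405), and Gzmc with array weights (limma adjusted p = 0.0497). Of pairs of members, 3 passed with either pseudocount and with quantile normalization. The cause was not tested.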
